A study of Mus musculus with 119 samples.

Results

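The Jun family of transcription factor genes, Jun, Junb and Jund, was followed in mouse bone marrow-derived macrophages (BMDMs) through every genotype, inhibitor and time of the series. The members were taken by gene symbol, which gave 3 of the 18098 genes in the deposited expression table, and each had a value in every RNA-seq library of the 25 groups. Wild-type (WT) BMDMs of the C57BL/6(NIMR) strain were sampled at rest, which is 0 h, and after 0.5 h and 1 h of lipopolysaccharide (LPS) at 100 ng/ml, with 6 libraries per time, and after 2 h with 4 libraries. Map3k8[D270A] BMDMs, which carry a kinase-inactive form of TPL-2, had 6 libraries at each of the same 4 times. Elk1-/-Elk4-/- BMDMs, which lack both of these ternary complex factor genes, had 4 libraries at each of those times. Nfkb1[SS/AA] BMDMs, in which a pair of IκB kinase target serines of p105 is changed to alanine, had 6 libraries at 0 h, 0.5 h and 1 h. WT cells held in 0.1 µM PD0325901, a MEK inhibitor, gave 6 libraries at 0.5 h and 6 at 1 h of LPS that began after 10 min of inhibitor, and 3 libraries each after 10, 40 and 70 min of inhibitor without LPS. A further 3 libraries came from WT cells held for 10 min in the solvent DMSO. WT cells given 2 µM RSKi47, an inhibitor of the RSK kinases, for 10 min before LPS had 3 libraries at 0.5 h and 4 at each of 0 h, 1 h and 2 h. In all groups the macrophages were grown from bone marrow in L-cell conditioned medium for 7 days. The mutant alleles are germline alleles, so cells other than macrophages carry them too.

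JUN, JUNB and JUND are the basic leucine zipper proteins that make up the Jun side of activator protein 1 (AP-1). They bind DNA as dimers, with one another or with FOS, FRA and ATF proteins, and the JNK kinases phosphorylate JUN to raise its activity. Jun and Junb are classical immediate early genes, switched on within minutes of a stimulus from factors already present in the cell, whereas Jund is known as the more steadily expressed member. In macrophages, LPS acts through Toll-like receptor 4, and the TPL-2 kinase, released from p105, then activates MEK and ERK, which in turn phosphorylate RSK kinases and ternary complex factors such as ELK1 and ELK4.

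Values are the deposited log2 values, and every difference is given on that scale. The study describes the values it plots as log2 of normalized counts, without saying so of the deposited table or whether low values were damped, so that a difference need not equal the log2 of a ratio of transcript numbers, and no fold is printed. A difference was called when its adjusted p, from limma with Benjamini-Hochberg adjustment over all genes tested, was below 0.05. The depth of each library is unknown from log2 values, so no counting interval can be given, and the number of libraries limits the precision. The Elk1 value lay between 6.17 and 6.59 in the 16 Elk1-/-Elk4-/- libraries and between 8.55 and 9.49 in the 103 others, and Elk4 between 5.51 and 5.88 against 6.88 to 8.56. The point mutations of Map3k8 and Nfkb1 cannot be checked from gene-level values. All 7 macrophage markers reached the level for testing, and the log2 of their summed linear values ran from 18.29 to 19.13 over all libraries, whereas none of 3 T cell or 3 B cell markers did. The summed neutrophil markers differed by arm, from 6.24 to 7.74 in WT and from 10.04 to 11.04 in Elk1-/-Elk4-/-, with S100a9 the most abundant and the defining markers Ly6g, Elane and Mpo below the level for testing throughout. In bulk RNA, fewer cells of a type and less RNA per cell cannot be told apart. The WT libraries fall into replicates 4 to 6, which deviated together with Map3k8[D270A] replicates 1 to 3, and replicates 7 to 9, which deviated together with Map3k8[D270A] replicates 4 to 6. For the other arms no untreated WT libraries of their own are labelled, so that arm and experiment cannot be told apart in comparisons with WT. The PD0325901 arm has DMSO libraries of WT cells, at 10 min and without LPS only. Each comparison with WT below uses the same WT libraries.

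Jun lies on mouse chromosome 4 in GENCODE on GRCm38, at chr4:95049034-95052222 on the minus strand, as a gene of 1 exon. Junb lies at chr8:84974484-84978718 on the minus strand and Jund at chr8:70698949-70700616 on the plus strand. The antisense gene Junos overlaps the 5′ end of Jun, and the antisense gene Gm11175 lies within Jund. The libraries were strand-specific, but whether the counting used strand is not stated, so that reads of these antisense genes may be among those of Jun and Jund. The stretches before the Jun and Junb start sites are shown because these 2 members made the large early responses. They are from RefSeq promoters on GRCm38.p6, at chr4:95052223-95052472 and chr8:84978719-84978998, both read on the minus strand, with capitals marking the motif matches found.
Jun: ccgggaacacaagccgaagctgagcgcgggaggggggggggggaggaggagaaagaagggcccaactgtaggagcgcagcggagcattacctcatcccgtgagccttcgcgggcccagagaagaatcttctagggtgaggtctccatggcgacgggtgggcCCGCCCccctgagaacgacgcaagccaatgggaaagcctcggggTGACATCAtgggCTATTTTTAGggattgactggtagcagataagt
Junb: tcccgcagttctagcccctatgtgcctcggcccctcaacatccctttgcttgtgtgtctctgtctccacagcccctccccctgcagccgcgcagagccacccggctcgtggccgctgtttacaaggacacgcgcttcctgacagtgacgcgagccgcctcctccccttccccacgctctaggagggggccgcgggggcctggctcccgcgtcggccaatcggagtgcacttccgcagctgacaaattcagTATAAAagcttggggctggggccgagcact

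In windows from 250 bases before to 50 bases after the start, 9 motifs were searched on both strands. The Jun window held TGACATCA, the variant AP-1 and ATF site, from -45 to -38, and the MEF2 site, printed in capitals downstream of it, from -33 to -24, counted from the RefSeq start. It also held GGGCGG, the SP1 box, on the opposite strand from -89 to -84. The Junb window held TATAAA, the TATA box, from 1 to 6, and its RefSeq start lies 30 bases upstream of the GENCODE start. Of 32851 promoter windows, 3.62% hold TGACATCA, 0.110% hold that MEF2 site, 35.7% hold GGGCGG and 13.6% hold TATAAA. The letters of the other motifs, TGACTCA (5.20% of windows), TGACGTCA (1.79%), CCGGAA (14.9%), the CArG box (1.63%) and the NF-kB site (8.46%), were not in the Jun or Junb window. The RefSeq start of Jund lies 1210 bases upstream of the GENCODE start, so its window is not printed, and none of the 9 motifs was in it.

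The WT course separated the 3 members. Jun rose within 0.5 h, was back near its resting value at 1 h and lay below it at 2 h. Junb rose further and stayed up, and Jund climbed slowly through 2 h. At 0.5 h all 3 members were called and higher, against 11.6% of 11884 genes called in either direction and 7.82% called higher. At 1 h all 3 were higher, against 46.8% called and 23.8% higher. At 2 h Junb and Jund were higher and Jun was lower, against 71.5% called. From 1 h to 2 h Jun and Junb fell and Jund rose, against 65.3% called.

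**Figure D1:**
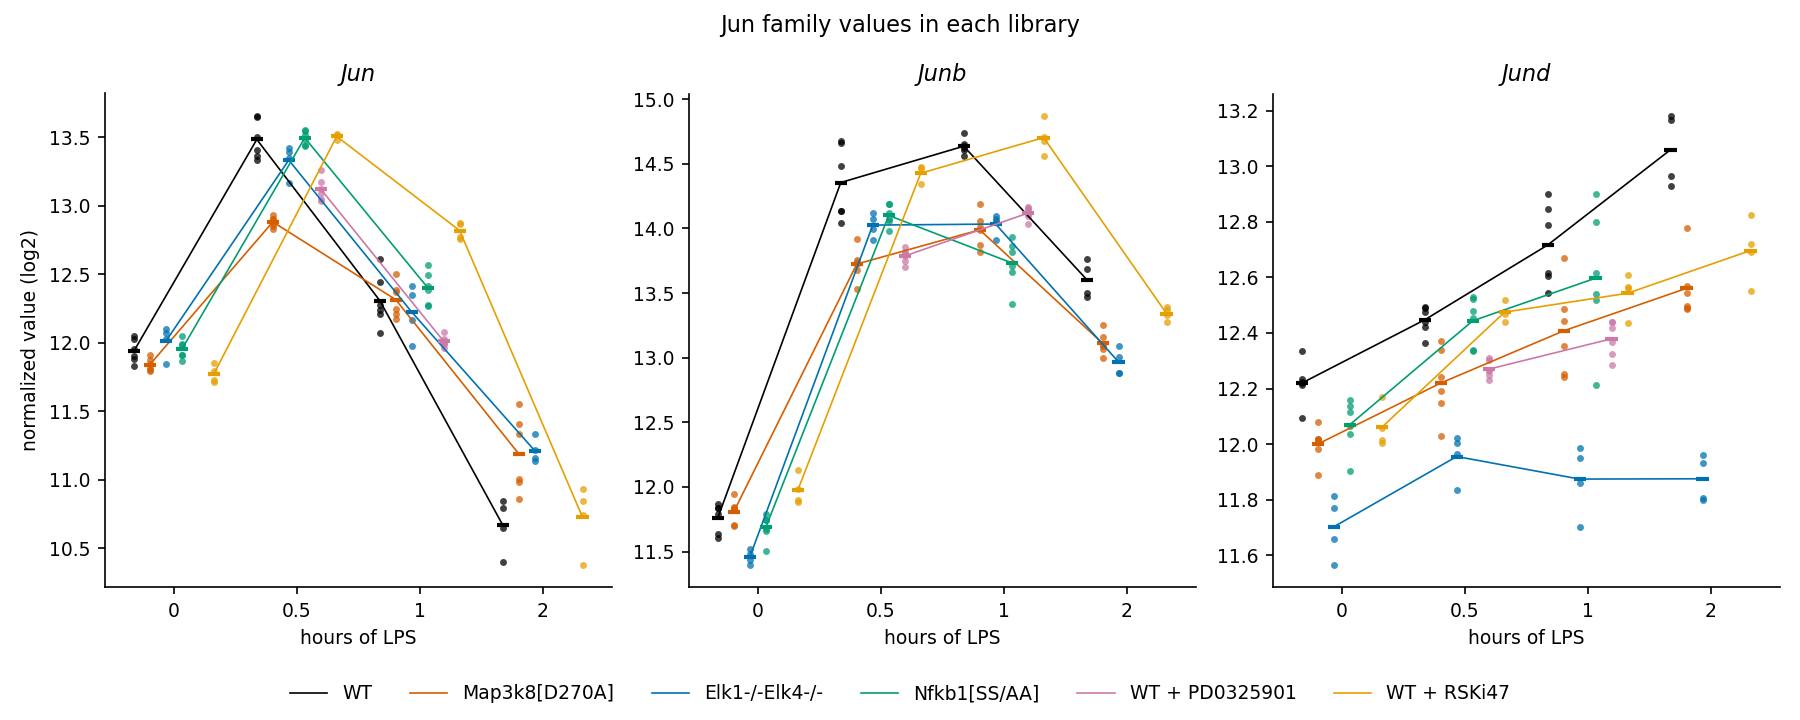
Normalized log2 values of Jun, Junb and Jund (y axis) in each library against hours of LPS (x axis), by arm, with points for libraries and lines through group means. Jun peaked at 0.5 h, Junb stayed high through 2 h and Jund rose least, from 12.22 to 13.06 in WT.

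Resting WT libraries had Jun values of 11.83, 11.93 and 12.05 (lowest, median and highest of 6). At 0.5 h these were 13.33, 13.46 and 13.66, and no library overlapped the resting group. The difference was 1.55 ± 0.09 (SE, adjusted p = 9.76e-22), the 50th highest of the genes tested. At 1 h Jun ran from 12.07 to 12.61 with a median of 12.26, still above every resting library (difference 0.37, adjusted p = 2.54e-04), though not called under quantile normalization (0.18, adjusted p = 0.0503). At 2 h the 4 libraries had 10.65, 10.84, 10.79 and 10.40, below all resting libraries. This was a fall of 1.27 from rest (adjusted p = 1.45e-17) and of 1.64 from 1 h (adjusted p = 1.06e-21), the 42nd lowest difference between 1 h and 2 h among 11884 genes. Jun thus ended the course at the lowest mean of any of the 25 groups, 10.67 ± 0.20 (SD, n = 4).

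Junb had resting WT values of 11.61, 11.81 and 11.87 (lowest, median and highest of 6). At 0.5 h it ran from 14.04 to 14.68 with a median of 14.31, and at 1 h from 14.56 to 14.74 with a median of 14.63. The rise was 2.59 ± 0.08 at 0.5 h (adjusted p = 1.59e-34), the 22nd highest of all genes, and 2.87 ± 0.08 at 1 h (adjusted p = 4.07e-37), the 70th highest. At 2 h the libraries had 13.50, 13.69, 13.77 and 13.47, still 1.84 above rest (adjusted p = 1.55e-26). The spread at 0.5 h lay between the replicate sets, with replicates 4 to 6 between 14.04 and 14.14 and replicates 7 to 9 between 14.48 and 14.68. The sets did not overlap there, and results that rest on WT Junb at 0.5 h are given below with each set as control where a call depends on it.

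Jund changed by less and in 1 direction. Its resting WT values were 12.09, 12.22 and 12.34 (lowest, median and highest of 6), and its 0.5 h values 12.37, 12.46 and 12.49. The groups did not overlap, with a difference of 0.23 ± 0.06 (adjusted p = 0.0107). Within replicates 4 to 6 alone it was 0.22 (adjusted p = 0.0694), and within replicates 7 to 9 alone 0.23 (adjusted p = 0.0807), so the call needed both sets. At 1 h the values ran from 12.54 to 12.90 with a median of 12.70 (difference 0.50, adjusted p = 1.92e-09), and at 2 h they were 12.97, 13.18, 13.16 and 12.93 (difference 0.84, adjusted p = 1.33e-15). The replicate sets did not overlap at 1 h, with replicates 4 to 6 from 12.79 to 12.90 and replicates 7 to 9 from 12.54 to 12.62. The 2 h libraries were the highest of the course, while those of Jun were the lowest. The step from 1 h to 2 h was 0.34 (adjusted p = 3.33e-05), and 0.15 (adjusted p = 0.0609) under quantile normalization, where the differences from rest were 0.27 at 1 h and 0.42 at 2 h, both called.

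Levels of different genes can be set side by side only per length. On the log2 scale per kilobase of the RefSeq gene span, resting WT means were 10.27 for Jun, 10.88 for Junb and 10.69 for Jund. For Jund the span is uncertain, and with the GENCODE span its resting level was 11.48. At 0.5 h the levels were 11.81 for Jun, 13.48 for Junb and 10.92 for Jund (11.71 with the GENCODE span). At 2 h they were 9.0 for Jun, 12.72 for Junb and 11.53 for Jund. Junb was thus the highest of the 3 at 0.5 h, 1 h and 2 h under either Jund span, and Jun the lowest at 2 h.

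The Map3k8[D270A] comparison asks what the family loses without TPL-2 kinase activity. At rest none of the members was called, against 1.44% of 11884 genes. At 0.5 h Jun and Junb were lower, against 1.37% of genes called and 0.892% called lower. At 1 h Junb and Jund were lower (9.79% called), and at 2 h Junb and Jund were lower and Jun was higher (27.7% called). Jun therefore lay below WT at 0.5 h, level with it at 1 h and above it at 2 h.

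At 0.5 h Jun in Map3k8[D270A] cells had values of 12.83, 12.89 and 12.94 (lowest, median and highest of 6), all below the lowest WT library at 13.33. The difference was -0.60 ± 0.09 (adjusted p = 1.76e-06), the 40th lowest of all genes. At 1 h the values of 12.18 to 12.50 fell inside the WT range, with a difference of 0.01 and a 95% interval from -0.17 to 0.18. At 2 h the libraries had 10.86, 11.17 and 11.55 (lowest, median and highest), all above the WT maximum of 10.84. The difference at 2 h was 0.52 ± 0.10 (adjusted p = 2.36e-05), the 112th highest. Replicates 1 to 3 at 2 h lay between 11.34 and 11.55 and the other 3 replicates lower, and within the matching sets the difference was 0.67 and 0.55.

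Junb was lower in Map3k8[D270A] cells at every LPS time and not at rest. Its values were 13.53, 13.73 and 13.92 at 0.5 h, 13.82, 14.00 and 14.19 at 1 h, and 13.00, 13.09 and 13.26 at 2 h (lowest, median and highest of 6). No library overlapped WT at any of the 3 times. The differences were -0.63 ± 0.08 (adjusted p = 2.55e-08), -0.65 ± 0.08 (adjusted p = 3.56e-09) and -0.49 ± 0.08 (adjusted p = 7.22e-06), ranks 35, 87 and 315 from the lowest. Within the matching sets the 0.5 h difference was -0.38 and -0.88. Within the second set, which has 1 WT library at 2 h, the 2 h difference was -0.36 (adjusted p = 0.0564), and the lone library is there assumed to vary like the other groups. Jund differed by -0.22 at rest (adjusted p = 0.0649), -0.23 at 0.5 h (adjusted p = 0.0558), -0.31 at 1 h (adjusted p = 4.89e-04) and -0.50 at 2 h (adjusted p = 1.68e-07). Its 6 mutant libraries at 2 h ran from 12.49 to 12.78, below every WT library, whereas at 1 h the groups overlapped. The 2 h Map3k8[D270A] libraries had glia sums of 10.24 to 10.36, against 10.75 to 10.86 in WT, and dendritic cell sums of 4.32 to 4.83, against 5.13 to 5.49, with Flt3 and Siglech below the level for testing, and their part was not tested. Within the second set the Jund difference was not called at 1 h (-0.26, adjusted p = 0.0698), whereas it was at 0.5 h (-0.32, adjusted p = 0.0314). At 2 h, where that set has 1 WT library, the Jund difference was -0.32.

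**Figure D2:**
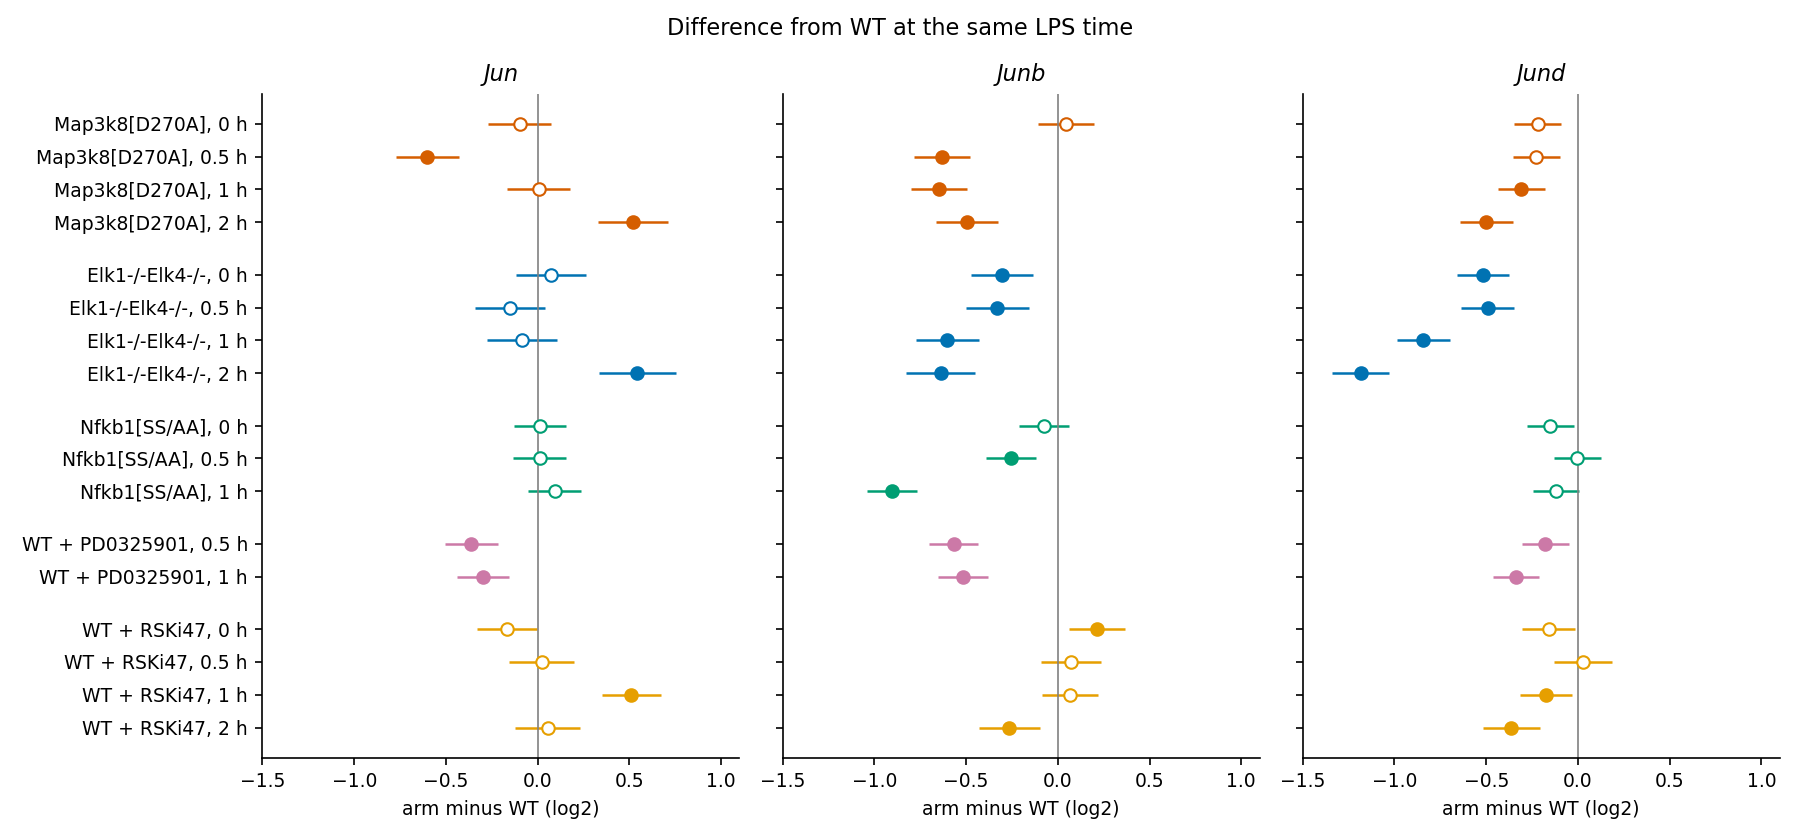
Difference of each arm from WT at the same LPS time (x axis, log2) for Jun, Junb and Jund, with 95% intervals, filled where called. Junb lay below WT in Map3k8[D270A], Elk1-/-Elk4-/-, Nfkb1[SS/AA] and PD0325901 cells, most at 1 h in Nfkb1[SS/AA] (-0.90), whereas Jun rose above WT in 2 arms at 2 h and with RSKi47 at 1 h.

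The Elk1-/-Elk4-/- comparison bears on ternary complex factors, and about as many genes differed from WT as did not. At 0 h Junb and Jund were lower, against 51.8% of 11884 genes called. They were also lower at 0.5 h (44.4% called) and 1 h (53.4%), and at 2 h Junb and Jund were lower and Jun was higher (50.8%). With such shares a call alone does not set a member apart, and the rank among all genes is given beside each called difference. The raised neutrophil marker sum in these libraries moves with all of these differences. The macrophage marker sum was lower than in WT at every time without overlap, from 18.29 to 18.39 against 18.55 to 18.75 at 0 h and from 18.48 to 18.55 against 18.72 to 18.85 at 2 h. Glia sums were also lower at 2 h (10.27 to 10.40 against 10.75 to 10.86), as at 0 h and 1 h, and dendritic cell sums at 2 h (4.21 to 4.62 against 5.13 to 5.49). The part of these markers in the differences was not tested.

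Jund stood lowest in this arm. Its values were 11.77, 11.66, 11.81 and 11.56 at 0 h, and 11.96, 11.81, 11.80 and 11.93 at 2 h, and none reached the lowest WT library of its time. The difference was -0.52 ± 0.07 at 0 h (adjusted p = 3.17e-08, rank 343 from the lowest), -0.49 at 0.5 h (rank 300), -0.84 at 1 h (rank 134) and -1.18 ± 0.08 at 2 h (adjusted p = 4.45e-18, rank 71). Junb differed by -0.30 at 0 h (adjusted p = 0.00234, rank 1199 from the lowest), -0.33 at 0.5 h (adjusted p = 0.00136, rank 823), -0.60 at 1 h (adjusted p = 5.15e-08, rank 285) and -0.64 at 2 h (adjusted p = 1.04e-07, rank 345). Its 1 h libraries had 14.05, 14.10, 14.07 and 13.91, all below the lowest WT library at 14.56. The 0.5 h groups overlapped, and with WT replicates 4 to 6 alone as control the 0.5 h difference was -0.08 (adjusted p = 0.419), against -0.58 with WT replicates 7 to 9.

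Jun was not called in Elk1-/-Elk4-/- cells at 0 h, 0.5 h or 1 h, with differences of 0.07, -0.15 and -0.08, though with WT replicates 7 to 9 alone as control the 0.5 h difference was -0.27 (adjusted p = 0.0493). At 2 h the libraries had 11.33, 11.16, 11.14 and 11.22, all above WT. The difference was 0.54 ± 0.10 (adjusted p = 2.20e-05, rank 596 from the highest), and 0.82 against WT replicate 7 alone. The late Jun value was thus above WT in both Map3k8[D270A] and Elk1-/-Elk4-/- cells, comparisons that share the 4 WT libraries.

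The Nfkb1[SS/AA] comparison addresses the release of TPL-2 from p105. No member was called at rest, against 32.0% of 11971 genes. At 0.5 h Junb was lower (32.3% called) and at 1 h Junb was lower (42.5% called). Jun differed by 0.01, 0.01 and 0.09 at 0 h, 0.5 h and 1 h, and the highest upper bound of the 95% intervals, at 1 h, was 0.24. The arm thus differed in Junb at 1 h, whereas the Junb difference at 0.5 h depended on the WT replicate set, as given below. Jun did not differ detectably at either LPS time, though at 1 h Jun was 0.23 above WT replicates 4 to 6 alone (adjusted p = 0.0196).

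Junb at 1 h had values of 13.41, 13.76 and 13.94 (lowest, median and highest of 6) in Nfkb1[SS/AA] cells, against 14.56 to 14.74 in WT. The groups lay apart, with a difference of -0.90 ± 0.07 (adjusted p = 4.28e-21), the 97th lowest of 11971 genes. At 0.5 h the values ran from 13.98 to 14.19 with a median of 14.10 and overlapped WT. The summed neutrophil markers were 7.27 to 8.35 at 1 h, against 6.40 to 7.74 in WT, and the macrophage markers 18.77 to 19.13, against 18.60 to 18.76, and their part was not tested. The 0.5 h difference was -0.25 (adjusted p = 0.00206) over all WT libraries and 0.00 (adjusted p = 0.984) with WT replicates 4 to 6 and -0.51 (adjusted p = 2.02e-08) with WT replicates 7 to 9 as control. Junb in Nfkb1[SS/AA] cells had means of 14.10 at 0.5 h and 13.73 at 1 h. In WT the mean went from 14.10 to 14.64 in replicates 4 to 6 and from 14.61 to 14.63 in replicates 7 to 9, and the step from 0.5 h to 1 h was not tested in either arm. Jund at 1 h was 12.21, 12.58 and 12.90 (lowest, median and highest), over the WT range of 12.54 to 12.90, with a difference of -0.12 (adjusted p = 0.128) that became -0.18 (adjusted p = 0.0206) without replicate 2 and -0.16 (adjusted p = 0.0479) without replicate 6.

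PD0325901 asks the same of MEK. All 3 members were lower than in WT at 0.5 h, against 29.4% of 11971 genes called in either direction and 15.0% called lower, and all 3 were lower at 1 h, against 35.7% and 19.3%. No library with solvent and LPS was part of the comparison. Jund was already lower without LPS or inhibitor, with a mean of 11.86 in DMSO libraries against 12.22 in resting WT. Its means with PD0325901 and LPS, 12.27 at 0.5 h and 12.38 at 1 h, lay above that DMSO mean. For Jund, inhibitor and experiment therefore cannot be told apart here. Summed neutrophil markers were 8.09 to 8.32 at 0.5 h, against 6.24 to 7.22 in WT, and 8.25 to 8.81 at 1 h, against 6.40 to 7.74, and glia markers 10.10 to 10.19 at 1 h, against 10.24 to 10.35, and their part was not tested. Junb had values of 13.70, 13.80 and 13.85 at 0.5 h and 14.03, 14.13 and 14.17 at 1 h (lowest, median and highest of 6), below every WT library at both times. Its differences were -0.57 ± 0.07 (adjusted p = 7.68e-11, rank 140 from the lowest) and -0.52 ± 0.07 (adjusted p = 1.02e-09). The 0.5 h value was -0.32 with WT replicates 4 to 6 and -0.82 with WT replicates 7 to 9 as control, both called. Jun ran from 13.03 to 13.26 with a median of 13.11 at 0.5 h, below WT, with a difference of -0.36 (adjusted p = 4.97e-05). At 1 h Jun ran from 11.96 to 12.08 and touched the WT range. The 1 h difference was -0.30 (adjusted p = 6.57e-04), and -0.16 (adjusted p = 0.112) with WT replicates 4 to 6 as control. Jund differed by -0.18 at 0.5 h (adjusted p = 0.0280) and -0.34 at 1 h (adjusted p = 1.42e-05), the latter -0.21 (adjusted p = 0.0376) with WT replicates 7 to 9 as control, and the 0.5 h call was lost without WT replicate 4, WT replicate 9 or PD0325901 replicate 2 (-0.17 each) and with either WT set alone (-0.18 and -0.17).

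The family also moved with time in PD0325901 without LPS. After 10 min no member differed from DMSO, where 0 of 11971 genes were called by limma and 245 had an unadjusted p below 0.05 (0% called). From 10 to 40 min Jund rose, against 3.58% of genes called, and from 10 to 70 min Jund and Junb rose and Jun fell, against 6.09%. The members therefore parted in direction in resting cells. There was no solvent series at 40 or 70 min, so inhibitor and time in the dish cannot be told apart.

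Jun had 12.04, 11.99 and 11.98 after 10 min, 11.65, 11.74 and 11.64 after 40 min, and 11.38, 11.31 and 11.37 after 70 min, against 11.97 to 12.05 in the 3 DMSO libraries. The 3 times did not overlap. Jun fell by 0.65 from 10 to 70 min (SE 0.10, adjusted p = 1.04e-06), the 40th lowest difference, and the value at 40 min was -0.33 (adjusted p = 0.0549), called with the compared groups fitted alone (adjusted p = 0.00831), without the filter (0.0380) and under quantile normalization (-0.34, adjusted p = 0.0228). Jund went from 11.99, 11.84 and 11.74 to 12.14, 12.32 and 12.15 and then to 12.38, 12.31 and 12.18. It rose by 0.35 to 40 min (adjusted p = 0.0131) and by 0.43 to 70 min (adjusted p = 4.84e-04), without overlap between 10 min and the later times. Junb had 12.08, 11.98 and 11.92 at 70 min against 11.73, 11.67 and 11.66 at 10 min, a rise of 0.31 (adjusted p = 0.0384). Without any 1 of the 3 replicates the Junb call was lost (0.28 to 0.33, lowest adjusted p = 0.141), as was the 40 min Jund call without replicate 2 (0.28, adjusted p = 0.432) or 3 (0.32, adjusted p = 0.162). Summed neutrophil markers were 7.54 to 8.25 in DMSO, 7.29 to 8.08 at 10 min, 8.43 to 8.79 at 40 min and 8.43 to 8.47 at 70 min, and their part was not tested.

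**Figure D3:**
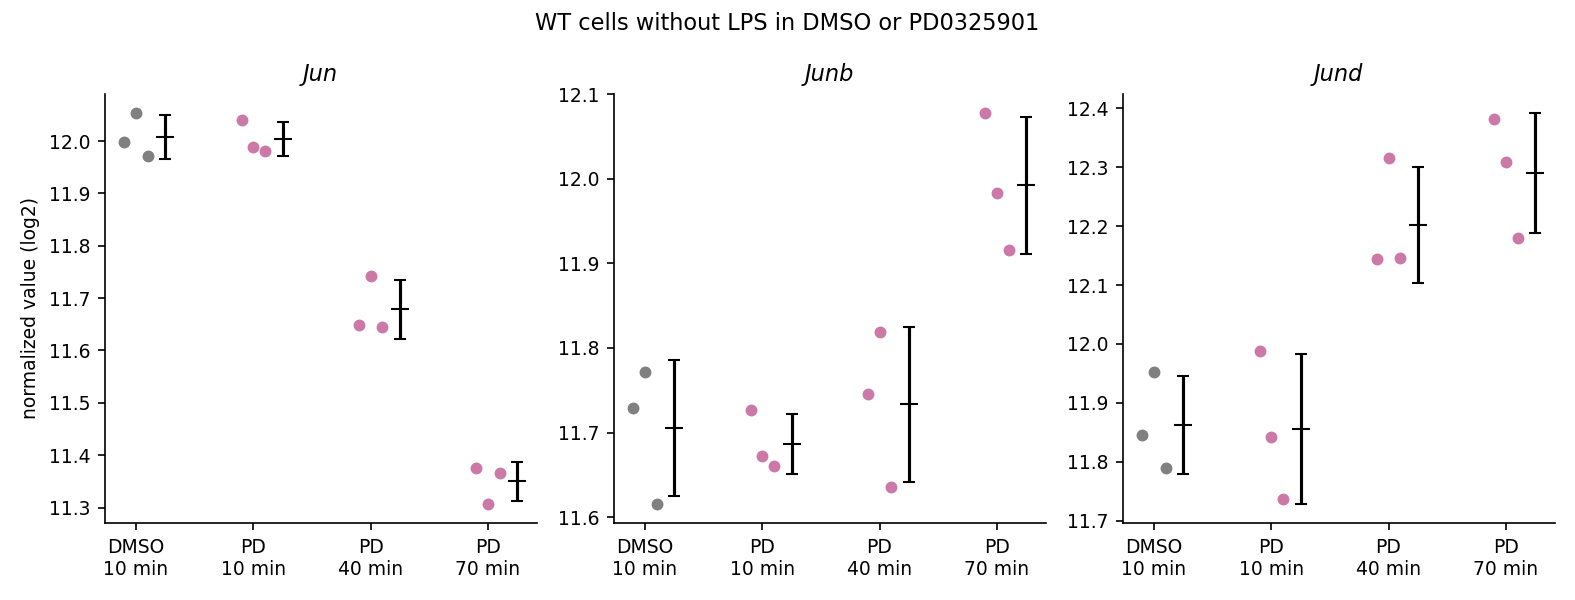
Normalized log2 values (y axis, a separate scale for each gene) in WT libraries held in DMSO or PD0325901 without LPS (x axis), 3 libraries per group, with means and SD. Jun fell by 0.65 between 10 and 70 min of PD0325901 while Jund rose by 0.43.

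The DMSO libraries also show what the arm itself carries. Against WT at 0 h, DMSO libraries had a lower Jund (-0.36, adjusted p = 3.70e-04) and no called change in Jun (0.07) or Junb (-0.06), against 23.6% of genes called. Resting cells after 10 min of PD0325901 gave the same size for Jund, -0.36 (adjusted p = 2.41e-04), against 25.9% called. Jund in this arm therefore started below WT before any LPS. Neutrophil marker sums were 7.54 to 8.25 in DMSO and 7.29 to 8.08 after 10 min of PD0325901, against 6.36 to 7.19 in resting WT. Glia sums were 10.33 to 10.38 after 10 min of PD0325901, against 10.43 to 10.64 in resting WT. The part of these markers was not tested.

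RSKi47 gave another pattern, in which Jun was higher and Junb was not called at 1 h. No solvent libraries are labelled for RSKi47, so inhibitor, solvent and experiment cannot be told apart. At rest Junb was higher, against 53.0% of 11971 genes called. At 0.5 h no member was called (48.2% called), though Junb was 0.32 above WT replicates 4 to 6 alone (adjusted p = 7.64e-04). At 1 h Jun was higher and Jund lower (52.8%), and at 2 h Junb and Jund were lower (52.1%).

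Jun after 1 h of LPS with RSKi47 had values of 12.87, 12.76, 12.77 and 12.88, above the highest WT library at 12.61. The difference was 0.51 ± 0.08 (adjusted p = 8.68e-08, rank 562 from the highest of 11971). The summed stroma markers of these 4 libraries were 5.08 to 7.32, against 4.05 to 4.93 in WT at 1 h. Their neutrophil sums were 7.68 to 8.43 (6.40 to 7.74 in WT), their macrophage sums 18.79 to 18.91 (18.60 to 18.76) and their glia sums, mostly Mbp, 10.49 to 10.54 (10.24 to 10.35), and the part of none of these was tested. In replicate 1 at 1 h the value of Fosb was far outside the range of the table and was treated as missing, and without that replicate the Jun difference was 0.49. At 0.5 h the 3 libraries had 13.52, 13.48 and 13.53, within the WT range, and at 2 h 10.74, 10.84, 10.93 and 10.38. The 2 h difference was 0.06 over all WT libraries, and 0.33 (adjusted p = 0.0430) against WT replicate 7 alone, a single library that is there assumed to vary like the other groups. Jun with RSKi47 thus lay within the WT range at 0.5 h and above it at 1 h.

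Junb at rest had 11.90, 11.88, 11.99 and 12.13 with RSKi47, a difference of 0.21 (adjusted p = 0.0147). Without replicate 4 it was 0.16 (adjusted p = 0.0986), and a resting library of this arm had the highest summed stroma markers of the series (9.42, against 4.05 to 4.43 in resting WT). Resting neutrophil sums were 7.50 to 7.82 with RSKi47 against 6.36 to 7.19 in WT, and glia sums 10.69 to 10.84 against 10.43 to 10.64, and the part of these markers was not tested. At 2 h Junb had 13.28, 13.37, 13.33 and 13.39 (difference -0.26, adjusted p = 0.00556) and Jund 12.72, 12.69, 12.82 and 12.55 (difference -0.36, adjusted p = 5.61e-05). Neither was called with WT replicate 7, the 2 h library of the second set, as the control (-0.13, adjusted p = 0.411, and -0.23, adjusted p = 0.142), where that lone library is assumed to vary like the other groups. The 2 h libraries with RSKi47 had summed neutrophil markers of 7.92 to 8.59, against 6.42 to 7.73 in WT, stroma markers of 5.34 to 6.50, against 4.07 to 4.49, glia markers from 10.41 up, all below the lowest WT sum of 10.75, and dendritic cell markers of 4.78 to 4.97, against 5.13 to 5.49, whose part was not tested. Jund at 1 h differed by -0.17 (adjusted p = 0.0354), by -0.30 (adjusted p = 0.00181) with WT replicates 4 to 6 and by -0.05 (adjusted p = 0.687) with WT replicates 7 to 9 as control, and leaving out any 1 of WT replicates 4, 5 and 6 or RSKi47 replicates 1, 2 and 4 also lost the call (-0.18 to -0.14).

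Changes from rest were also tested within each arm. In Map3k8[D270A] cells all 3 members were called at 0.5 h, 1 h and 2 h, against 5.08%, 41.9% and 69.5% of genes, though Jund at 0.5 h was not within the second replicate set (0.12, adjusted p = 0.852). In Elk1-/-Elk4-/- cells all 3 were called at 0.5 h (4.96% of genes called), Junb alone at 1 h (33.3%) and all 3 at 2 h (67.2%). In Nfkb1[SS/AA] cells all 3 were called at 0.5 h (14.6%) and 1 h (44.4%), and with RSKi47 all 3 at 0.5 h (5.10%), 1 h (29.0%) and 2 h (62.2%). With PD0325901, Jun and Junb and not Jund were called at 0.5 h (14.9%) and 1 h (43.6%) against inhibitor alone for an equal time. Against 10 min of inhibitor, the state when LPS was added, all 3 were called at 0.5 h (8.63% of genes called), and Junb and Jund and not Jun at 1 h (41.3%). Every called change at 0.5 h and 1 h was a rise, and at 2 h Jun fell in each arm measured while Junb and Jund stood above rest. At 0.5 h Junb rose the most of the 3 members in every arm, by 1.92 in Map3k8[D270A], 2.57 in Elk1-/-Elk4-/-, 2.41 in Nfkb1[SS/AA], 2.05 with PD0325901 and 2.45 with RSKi47.

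Whether an arm changed the response to LPS itself was tested by setting its change from rest against the WT change, which takes out differences already present at rest. PD0325901 libraries with LPS were set for this against the libraries without LPS after an equal time in inhibitor, 40 or 70 min, whereas every other arm, WT included, was set against its 0 h libraries. A drift without LPS is thus taken out of the PD0325901 response alone, and its values are also given against 10 min of inhibitor, a setting chosen after seeing the data. Of 39 such tests 13 were called, 7 of 13 for Junb, all smaller responses than in WT, 3 of 13 for Jun, all higher than in WT, and 3 of 13 for Jund, all lower. The shares of all genes called were 0.109%, 2.02% and 15.5% for Map3k8[D270A] at 0.5 h, 1 h and 2 h and 0.0589%, 1.35% and 16.9% for Elk1-/-Elk4-/-. They were 1.49% and 3.58% for PD0325901, 0.309% and 6.07% for Nfkb1[SS/AA] at 0.5 h and 1 h, and 0.0251%, 5.54% and 21.0% for RSKi47.

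**Figure D4:**
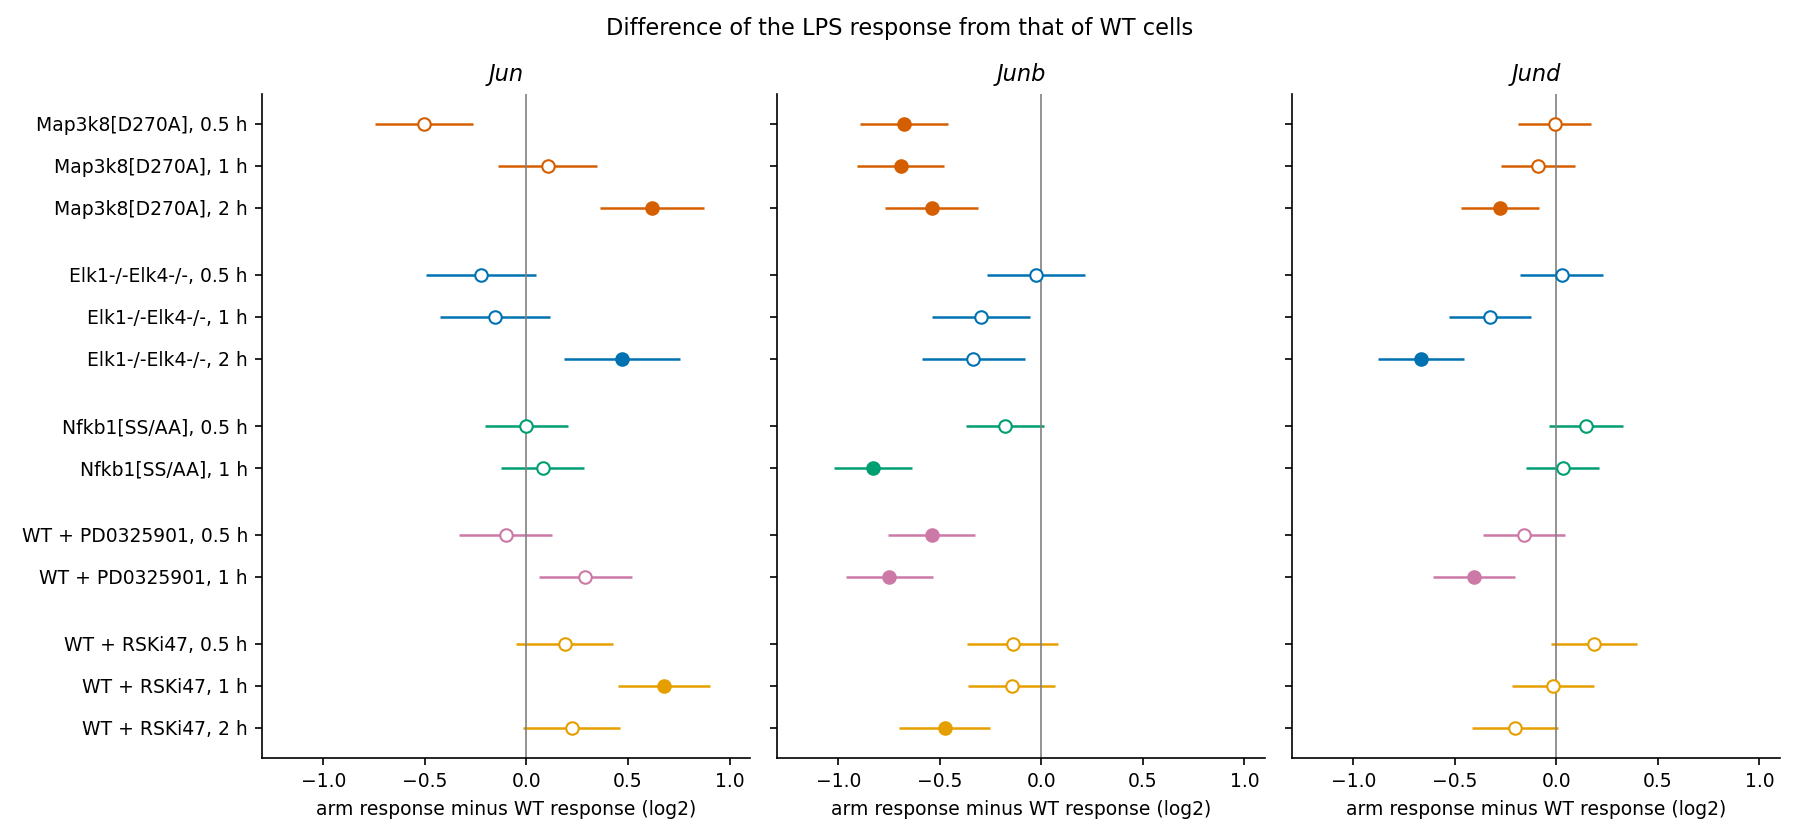
Difference between the LPS response of each arm and that of WT (x axis, log2) for Jun, Junb and Jund at each time, with 95% intervals, filled where called. Junb responses lay below WT by up to 0.83, and Jun responses above WT by 0.47 to 0.68 in the 3 called tests.

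For Junb the response in Map3k8[D270A] cells was 1.92 at 0.5 h and 2.18 at 1 h, against 2.59 and 2.87 in WT. The differences in response were -0.68 (adjusted p = 8.82e-05), -0.69 (adjusted p = 1.10e-05) and, at 2 h, -0.54 (adjusted p = 3.90e-04), the last -0.34 (adjusted p = 0.201) within the second replicate set. At 0.5 h Junb was thus among the 13 genes called of 11884. In Nfkb1[SS/AA] cells the Junb response at 1 h was 2.05, and it differed from WT by -0.83 ± 0.10 (adjusted p = 4.53e-11, rank 93 from the lowest). At 0.5 h the same comparison gave -0.18 (adjusted p = 1.00). With PD0325901 the differences were -0.54 at 0.5 h (adjusted p = 5.38e-04) and -0.75 at 1 h (adjusted p = 9.88e-08). The 0.5 h value was -0.30 (adjusted p = 0.233) with WT replicates 4 to 6 as control and lost its call with the compared groups fitted alone (adjusted p = 0.0657). Against 10 min of inhibitor the differences were -0.49 (adjusted p = 0.00347) and -0.44 (adjusted p = 0.00543), where 1.65% and 3.64% of genes were called. In Elk1-/-Elk4-/- cells the Junb responses of 2.57, 2.58 and 1.51 differed from WT by -0.03, -0.30 and -0.33, none of them called (lowest adjusted p = 0.0581). With RSKi47 the Junb response at 2 h differed by -0.48 (adjusted p = 8.03e-04), and by -0.33 (adjusted p = 0.162) with WT replicates 7 to 9 as control, of which 1 has a 2 h library.

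For Jun the response at 0.5 h was 1.04 in Map3k8[D270A] and 1.32 in Elk1-/-Elk4-/- cells, against 1.55 in WT. The differences were -0.50 (adjusted p = 0.0815) and -0.22 (adjusted p = 1.00), and the Map3k8[D270A] value was called within the second replicate set (-0.55, adjusted p = 0.0489) and with the compared groups fitted alone (adjusted p = 7.04e-04). At 2 h Jun had fallen by 0.65 from rest in Map3k8[D270A] cells and by 0.80 in Elk1-/-Elk4-/- cells, against 1.27 in WT. These smaller falls differed from WT by 0.62 (adjusted p = 3.16e-04) and 0.47 (adjusted p = 0.0152). The Elk1-/-Elk4-/- value was not called with WT replicates 4 to 6 as control (0.33, adjusted p = 0.110), without WT replicate 7 (0.36, adjusted p = 0.0833) or without Elk1-/-Elk4-/- replicate 1 or 4 (0.45 and 0.41), and it was 0.80 with WT replicates 7 to 9 as control, of which 1 has a 2 h library. With RSKi47 the 1 h response of Jun was 1.05 against 0.37, a difference of 0.68 ± 0.11 (adjusted p = 1.04e-05), the 19th highest of 11971 genes. It includes a difference of -0.17 from WT at rest (adjusted p = 0.0748), which was -0.22 (adjusted p = 0.0112) under quantile normalization. The Jun means at 1 h were 12.82 with RSKi47 and 12.31 in WT. With PD0325901 the LPS response of Jun, 1.44 at 0.5 h and 0.66 at 1 h, differed from WT by -0.10 and 0.29, neither called (95% interval at 1 h from 0.06 to 0.52). Against 10 min of inhibitor, before the fall of Jun without LPS, the responses were 1.12 and 0.01. These differed from WT by -0.43 at 0.5 h (adjusted p = 0.0275) and -0.36 at 1 h (adjusted p = 0.0543), so that the direction at 1 h turns with the libraries taken as the state before LPS.

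For Jund the response at 2 h was 0.56 in Map3k8[D270A] and 0.17 in Elk1-/-Elk4-/- cells, against 0.84 in WT. The Elk1-/-Elk4-/- difference in response was -0.67 ± 0.11 (adjusted p = 5.29e-06, rank 169 from the lowest). The Map3k8[D270A] difference was -0.28 (adjusted p = 0.0371), and it was not called within the second replicate set (-0.12, adjusted p = 0.757), under quantile normalization (-0.21, adjusted p = 0.157), or without any 1 of WT replicates 5, 6 and 8 or Map3k8[D270A] replicates 2, 3, 5 and 6 (-0.27 to -0.24). In Elk1-/-Elk4-/- cells Jund changed by 0.25 at 0.5 h (adjusted p = 0.0435), 0.17 at 1 h (adjusted p = 0.0867) and 0.17 at 2 h (adjusted p = 0.0467), and the call at 0.5 h was lost without any 1 of the 4 replicates (0.22 to 0.29) and that at 2 h without replicate 1, 2 or 4 (0.11 to 0.18). Under quantile normalization the 2 h value changed sign, to -0.17 (adjusted p = 0.0436). With PD0325901 the LPS response of Jund was 0.07 at 0.5 h and 0.09 at 1 h, neither called, and the 1 h value differed from WT by -0.41 (adjusted p = 0.00635). Without PD0325901 replicate 1 that difference was -0.34 (adjusted p = 0.118), and with WT replicates 7 to 9 as control -0.29 (adjusted p = 0.360). Against 10 min of inhibitor, before the rise of Jund without LPS, its responses were 0.41 and 0.52, both called, and differed from WT by 0.19 (adjusted p = 0.462) and 0.03 (adjusted p = 0.947). A smaller Jund response at 1 h was therefore seen only against the libraries held for 70 min.

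Differences between members within each library do not depend on a scaling factor for the whole library, and they show how an arm shifted the balance of the family. Of 30 exact two-sided permutation tests against WT at 0.5 h and 1 h, with Benjamini-Hochberg adjustment over the 30, 19 had an adjusted p below 0.05. These were 7 of 10 for Junb minus Jun, 5 of 10 for Jund minus Jun and 7 of 10 for Junb minus Jund. The smallest p that these designs allow is 0.00216 for 6 against 6 libraries, 0.00476 for 4 against 6 and 0.0119 for 3 against 6.

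**Figure D5:**
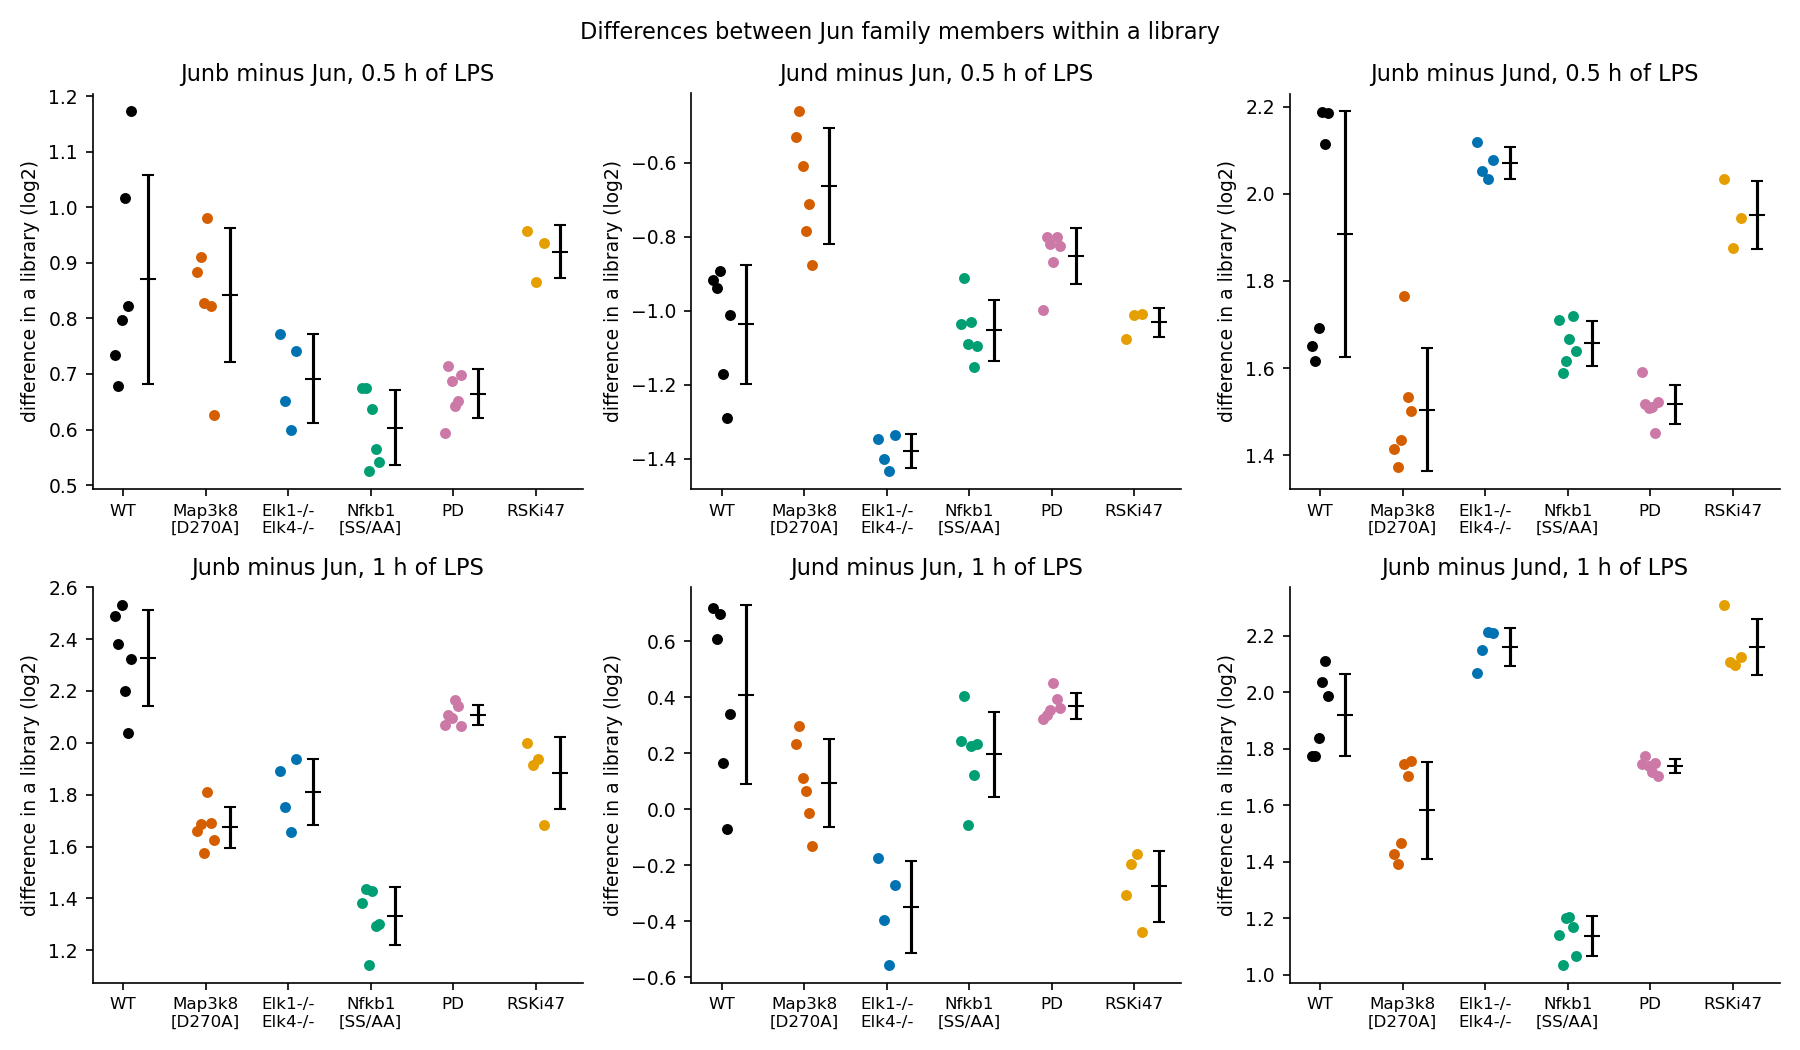
Differences between members within a library (y axis, log2) in each arm at 0.5 h and 1 h of LPS, with points for libraries and bars for means and SD. At 1 h Junb minus Jun was highest in WT, 2.33, and lowest in Nfkb1[SS/AA], 1.33.

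At 1 h Junb minus Jun ran from 2.04 to 2.53 in WT, with a mean of 2.33 ± 0.19 (SD, n = 6). It was lower in all 5 arms. In Nfkb1[SS/AA] it ran from 1.14 to 1.44 without overlap (difference -1.0, exact permutation test, adjusted p = 0.00812), and in Map3k8[D270A] from 1.57 to 1.81 (difference -0.65, exact permutation test, adjusted p = 0.00812). In Elk1-/-Elk4-/- the difference was -0.52 and with RSKi47 -0.44 (exact permutation tests, adjusted p = 0.0238 each), in the first with a lower Junb and in the second with a higher Jun. With PD0325901 it was -0.22 (exact permutation test, adjusted p = 0.0397), which was lost without any 1 of the 6 PD0325901 libraries (-0.23 to -0.21) and was -0.08 with WT replicates 7 to 9 as control. Junb minus Jund at 1 h was 1.14 in Nfkb1[SS/AA] against 1.92 in WT (difference -0.78, exact permutation test, adjusted p = 0.00812). Jund minus Jun at 1 h was -0.35 in Elk1-/-Elk4-/- and -0.28 with RSKi47 against 0.41 in WT, with no overlap (differences of -0.76 and -0.68, and of -0.49 and -0.42 with WT replicates 7 to 9 as control). The WT mean was 0.67 in replicates 4 to 6 and 0.14 in replicates 7 to 9.

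At 0.5 h Junb minus Jun did not differ detectably in Map3k8[D270A] cells, with 0.84 against 0.87 (difference -0.03, exact permutation test, adjusted p = 0.829), since both members were lower by like amounts. Within the matching replicate sets the difference was 0.14 and -0.19. Jund minus Jun at 0.5 h was higher in Map3k8[D270A] cells (difference 0.37, exact permutation test, adjusted p = 0.00812) and lower in Elk1-/-Elk4-/- cells (difference -0.34, exact permutation test, adjusted p = 0.0238). With RSKi47 at 0.5 h, Junb minus Jun was 0.92, Jund minus Jun -1.03 and Junb minus Jund 1.95, each within the WT range.

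Over the 25 groups, the mean of Jun ran from 13.51 with RSKi47 at 0.5 h down to 10.67 in WT at 2 h. The 6 groups at 0.5 h held the top 6 places, then came the 1 h groups except that of PD0325901, then that group with those without LPS, and the 4 groups at 2 h were last. Of 24 neighbouring pairs in that order, 12 lay apart by more than the larger of their SDs. The mean of Junb ran from 14.70 with RSKi47 at 1 h to 11.46 in resting Elk1-/-Elk4-/- cells, and 8 of 24 neighbouring pairs lay apart by more than the SD. The widest gap, 0.97, separated the LPS groups from all groups without LPS. The mean of Jund ran from 13.06 in WT at 2 h to 11.70 in resting Elk1-/-Elk4-/- cells, and 3 of 24 neighbouring pairs lay apart, so most of its order is not resolved. Across the group means, which share libraries only within a group, Pearson's r was 0.50 for Jun and Junb, -0.09 for Jun and Jund and 0.57 for Junb and Jund (n = 25 groups), given as a description.

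The genes whose 25 group means followed each member most closely, by Pearson's r among 11970 genes, differed between members. For Jun they were Fos (r = 0.935), the AP-1 partner, Btg2 (0.928), an antiproliferative immediate early gene, Cep120 (0.877), Spry2 (0.874), a feedback inhibitor of receptor signalling to ERK, and Emsy (0.870). For Junb they were the neutrophil chemokine gene Cxcl2 (0.967), Ppp1r15a (0.963), which encodes a regulator of eIF2α phosphatase, the cytokine gene Tnf (0.961), Zfp36 (0.958), which encodes the mRNA decay factor tristetraprolin, and Nfkbid (0.957), an atypical IκB gene. For Jund they were Dda1 (0.922), Gm11696 (0.886), Tmem57 (0.873) and Zbtb22 (0.853).

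The dimer partners of the family gave the setting. Of 11 partner genes of the FOS, ATF, BATF and JDP kind, all tested, 5 were higher in WT at 0.5 h and none lower (11.6% of all genes called), 8 higher at 1 h and none lower (46.8%), and 6 higher and 1 lower at 2 h (71.5%). Their median differences were 0.16, 0.74 and 0.50, against 0.00, 0.00 and -0.02 over all genes. Fos, the main partner of JUN, rose by 3.15 at 0.5 h, stood 0.85 above rest at 1 h and fell by 1.55 below rest at 2 h, the order of times also seen for Jun. Jdp2, which encodes a repressing partner, was 2.57 above rest at 1 h and 4.47 at 2 h.

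In Map3k8[D270A] cells, where 1.37%, 9.79% and 27.7% of all genes were called at 0.5 h, 1 h and 2 h, 2 of the 11 partners were lower than WT at 0.5 h, Fos by -1.04 and Fosb by -1.47, and at 1 h 4 were lower, Fos (-1.16), Fosb (-1.29), Fosl1 (-1.01) and Jdp2 (-0.69). At 2 h 4 were lower and 1 higher. At 1 h Fos was lower while Jun did not differ detectably. In Nfkb1[SS/AA] cells at 1 h, 7 partners were lower and 1 higher, against 42.5% of all genes called and 21.9% lower, with Fos (-1.62) and Fosb (-1.73) among the lower ones. With PD0325901, 5 were lower at 0.5 h (15.0% of all genes lower), and 7 were lower and 1 higher at 1 h (35.7% called, 19.3% lower), and Fos was among the lower ones (-1.35 and -1.44). Without LPS, Fos fell by 1.31 between 10 and 40 min of PD0325901 (adjusted p = 5.00e-11) and by 1.63 by 70 min (adjusted p = 1.86e-15), as Jun fell and Jund rose. With RSKi47 at 1 h, 3 were higher and 6 lower, against 52.8% of all genes called, and Fos differed by 0.20 (adjusted p = 0.155), with a spread of 11.35 to 12.67 over the 4 libraries.

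Genes of the JNK pathway, which phosphorylates JUN, were 14 tested of 17 listed. In Map3k8[D270A] cells none was called against WT at 0 h or 0.5 h, where 1.44% and 1.37% of all genes were, 1 was higher at 1 h, Map3k1 (0.19, against 9.79% called), and 3 were higher and 3 lower at 2 h (27.7% called). In WT, where 11.6%, 46.8% and 71.5% of all genes were called at 0.5 h, 1 h and 2 h, 4 JNK pathway genes were higher at 0.5 h, among them Mapk8 (0.27), which encodes JNK1, and Map3k1 (0.24), and at 2 h 6 were higher and 5 lower, Map3k5 by 2.12 and Map3k1 by -0.73. Of 10 genes for regulators of JUN protein, none was called in Map3k8[D270A] cells at 0 h, 0.5 h or 1 h, and 1 was higher and 4 lower at 2 h. In WT, Fbxw7, the ubiquitin ligase subunit that recognises JUN, was 0.27 above rest at 0.5 h and 0.43 at 1 h and fell by 0.58 at 2 h, while Rfwd2, which encodes the ligase COP1, was 0.91 above rest at 2 h. Of 7 genes for upstream factors of the ELK, SRF and MEF2 kind, 2 were higher in WT at 0.5 h (7.82% of all genes higher), all 7 at 1 h (23.8% higher), and 4 were higher and 2 lower at 2 h. Srf was lower in Map3k8[D270A] cells by -0.18 at 1 h and -0.24 at 2 h.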

How the data were processed

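RNA from 119 BMDM libraries was sequenced by the authors as strand-specific single-end reads on an Illumina HiSeq. The submitters' processing notes name STAR 2.5.1b, RSEM 1.2.29 and DESeq2 1.10.1 with the mm10 genome. The deposited table holds log2 values normalized by the authors, from -2.40 to 19.81, and the study describes plotted values as log2 of normalized counts, without naming the transformation of the deposited table. 1 value above 25 was treated as missing. Groups came from the sample labels. Differences were tested with limma 3.58.1 in R 4.3.3, with Benjamini-Hochberg adjustment over all genes. The comparisons among WT, Map3k8[D270A] and Elk1-/-Elk4-/- used their 62 libraries and 11884 genes that reached 10 on the linear scale in 4 libraries. All other comparisons used all 119 libraries and 11971 genes that reached it in 3. Within WT, libraries with the same replicate number deviated together across times (correlations from 0.16), as did those of Nfkb1[SS/AA] (from 0.14), so that their numbers pair, and a block on them changed no call within those 2 arms. Differences between members used exact permutation tests. Scripts were tested on simulated data. The labels give replicate numbers without naming animals, so p-values measure the spread between these libraries, which may be technical in part.

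The members and the gene lists were chosen with earlier results of these data known. The genes most like each member were the 5 with the highest Pearson's r over group means, of which 1 is not reported here. Alternatives were the scaling, the filter, the samples and trend in the fit, the replicate block, each replicate set, leaving out each replicate and, added after seeing the data, 10 min of PD0325901 as the state before LPS.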

Additional observations from a re-analysis of the deposited data

Results flagged for a closer look

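In 1 of 60 groups of 4 to 10 libraries a library stood apart from its group by Dixon's criterion, which chance meets in about 1 in 20 groups. Jund in Map3k8[D270A] replicate 4 at 2 h was 12.78, against 12.49 to 12.57 in the other 5 libraries.

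The LPS response differed from that of WT in 13 of 39 tests of the difference itself (limma, Benjamini-Hochberg adjusted p below 0.05). For Junb these were Map3k8[D270A] at 0.5 h (-0.68), 1 h (-0.69) and 2 h (-0.54), Nfkb1[SS/AA] at 1 h (-0.83), PD0325901 at 0.5 h (-0.54) and 1 h (-0.75) and RSKi47 at 2 h (-0.48). For Jun they were Map3k8[D270A] at 2 h (0.62), Elk1-/-Elk4-/- at 2 h (0.47) and RSKi47 at 1 h (0.68). For Jund they were Map3k8[D270A] at 2 h (-0.28), Elk1-/-Elk4-/- at 2 h (-0.67) and PD0325901 at 1 h (-0.41), the last 0.03 and not called against 10 min of inhibitor. All of these use the same WT libraries.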

How the results depend on the processing

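Of 63 limma results that answer a comparison, 39 kept their call and direction under every alternative run, and 1063 of 1122 alternative values did. For responses and differences in response, 1342 of 1407 did. No alternative reversed a called difference from WT, and the cause of each change below was not tested. The depth of each library is unknown, and small differences of Jund, mostly below 0.35, made up most of the changes. Under quantile normalization Jun in WT at 1 h against 0 h was 0.18 and Jund in WT at 2 h against 1 h 0.15, neither called. Newly called there were the resting Jund differences from WT in Map3k8[D270A] (-0.24), Nfkb1[SS/AA] (-0.19) and RSKi47 (-0.22) and resting Jun with RSKi47 (-0.22), and Jund in Elk1-/-Elk4-/- cells at 2 h against 0 h turned to -0.17. With a trend in limma, Jund in Map3k8[D270A] at 0.5 h was called (-0.23). With the compared groups fitted alone, the calls of Junb at 0.5 h in Elk1-/-Elk4-/- (-0.33) and Nfkb1[SS/AA] (-0.25) and of Jund with RSKi47 at 1 h (-0.17) were lost, and resting Jund in Map3k8[D270A] (-0.22), Nfkb1[SS/AA] (-0.15) and RSKi47 (-0.16) and resting Jun with RSKi47 (-0.17) were called.

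The same replicate number in WT and another arm did not mark libraries that deviated together. With the replicate block across arms, Jund was called against WT in Map3k8[D270A] at 0 h (-0.31) and 0.5 h (-0.32) and in Nfkb1[SS/AA] at 0 h (-0.22) and 1 h (-0.19), and no other call changed. The replicate block within an arm changed 3 calls, all in Elk1-/-Elk4-/- cells. There the pairs with the same number correlated at 0.19 to 0.59 for replicates 3 and 4 and at -0.22 to 0.25 for replicates 1 and 2, so that not every number pairs the libraries. The 3 calls, all gained, were Jund at 1 h against 0 h (0.17, adjusted p = 0.0443) and the differences in response of Jund at 1 h (-0.33, adjusted p = 0.0379) and Junb at 2 h (-0.36, adjusted p = 0.0225).

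Within the replicate sets, Jund in WT at 0.5 h against 0 h was 0.22 and 0.23, neither called, and within the second set Jund in Map3k8[D270A] was called at 0.5 h (-0.32) and not at 1 h (-0.26) or 2 h (-0.32), nor Junb at 2 h (-0.36). With WT replicates 4 to 6 as control, these lost their call: Junb at 0.5 h in Elk1-/-Elk4-/- (-0.077) and Nfkb1[SS/AA] (-0.0026), and with PD0325901 Jund at 0.5 h (-0.18) and Jun at 1 h (-0.16). Newly called were Jun (0.23) and Jund (-0.25) in Nfkb1[SS/AA] at 1 h and Junb with RSKi47 at 0.5 h (0.32). With WT replicates 7 to 9 as control, Jund with PD0325901 at 0.5 h (-0.18), Jund with RSKi47 at 1 h (-0.045) and 2 h (-0.23) and Junb with RSKi47 at 2 h (-0.13) lost their call. Newly called were Jun in Elk1-/-Elk4-/- at 0.5 h (-0.27) and with RSKi47 at 0 h (-0.22) and 2 h (0.33). With PD0325901 libraries averaged in pairs, since repeats of the same cultures could not be told from separate ones, Jund at 0.5 h was -0.18 and not called. With 10 min of PD0325901 as the state before LPS, a setting added after seeing the data, the Jund difference in response at 1 h turned from -0.41 to 0.027 and was not called, the Jun difference at 0.5 h was called (-0.43), the Jun response at 1 h was not (0.0065), and the Jund responses were (0.41 and 0.52).

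Of the 30 differences between members against WT, 16 kept their call throughout. Under quantile normalization Junb minus Jund in Nfkb1[SS/AA] at 0.5 h was -0.29 (called), and with PD0325901 Jund minus Jun at 0.5 h (0.16) and Junb minus Jun at 1 h (-0.18) were not called. With WT replicates 4 to 6 as control, Junb minus Jund in Elk1-/-Elk4-/- at 0.5 h (0.42), Jund minus Jun in Nfkb1[SS/AA] at 1 h (-0.48) and with PD0325901 at 1 h (-0.30) were called, and with PD0325901 at 0.5 h Junb minus Jun (-0.072) and Jund minus Jun (0.064) were not. With WT replicates 7 to 9, Junb minus Jun in Elk1-/-Elk4-/- (-0.31) and Junb minus Jund in Nfkb1[SS/AA] (-0.51) were called at 0.5 h, and Junb minus Jund in Elk1-/-Elk4-/- (0.12) and RSKi47 (0.12) and Junb minus Jun with PD0325901 (-0.080) were not at 1 h. With PD0325901 libraries in pairs, which leaves 3 against 6 values and no p below 0.0119, none was called, which says nothing about stability, with Junb minus Jun -0.21 and -0.22, Jund minus Jun 0.18 and Junb minus Jund -0.39 and -0.18.

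Leaving out each replicate in turn changed the call of Jund against WT in Map3k8[D270A] at 0 h (-0.24 to -0.20) and 0.5 h (-0.26 to -0.19), in Nfkb1[SS/AA] at 0 h (-0.18 to -0.12) and 1 h (-0.18 to -0.042), with PD0325901 at 0.5 h (-0.19 to -0.17) and with RSKi47 at 0 h (-0.20 to -0.14) and 1 h (-0.21 to -0.14), and of Junb with RSKi47 at 0 h (0.16 to 0.24). Between members it changed Junb minus Jun with PD0325901 at 0.5 h (-0.24 to -0.15) and 1 h (-0.28 to -0.18) and Jund minus Jun there at 0.5 h (0.13 to 0.21). It also changed Junb minus Jund in Map3k8[D270A] (-0.46 to -0.35) and Nfkb1[SS/AA] (-0.31 to -0.19) at 0.5 h and in Elk1-/-Elk4-/- (0.21 to 0.28) and RSKi47 (0.19 to 0.28) at 1 h, and Jund minus Jun in Map3k8[D270A] at 1 h (-0.41 to -0.25).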
